A study of Mus musculus with 7 samples.

Results

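A set of 8 genes that act in the p53 response and in growth arrest was followed through mouse neutrophils of 3 healthy tissues and 4 inflamed or arthritic settings. The 8 genes were Cdkn1a, Cdkn1b, Gadd45a, Gadd45b, Mdm2, Ccng1, Xpc and Trp53inp1, of 28692 genes listed in the table of the inflammation library. They were chosen by function and by their measured levels in the inflammation library, where Cdkn1a had been seen to be high in the lung and Xpc low at every inflamed site, so those levels are given as a description, with no test. All 8 had a row in 6 of the 7 count tables. In the spleen table of run 1, which lists only genes with at least 1 count, Cdkn1a had no row and was read as 0.

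Healthy cells came from bone marrow, blood and spleen of untreated male C57BL/6J mice, with 3 mice pooled for each tissue in each of 2 runs. A single set of 3 mice gave all tissues of a run. They were 6 weeks old in run 1 and 8 weeks old in run 2, so age and run cannot be told apart. The inflammation library held 5 conditions, each from 3 pooled male mice of 8 weeks and marked by hashtag oligonucleotides. These were healthy blood, blood and joint lavage (of the femorotibial joint per the labels, of the tibiotalar joint per the study's methods) of mice given 150 µl of K/BxN serum (an arthritis-inducing serum) on days 0 and 2 and harvested on day 7, and peritoneal or lung lavage taken 3 h after 25 ng of IL-1β was given at that site. Cells had been sorted as CD11b-positive, Ly6G-positive and propidium iodide-negative. A healthy cell was kept as a neutrophil where S100a8 and S100a9 made up at least 3% of its UMIs (unique molecular identifiers, each counting 1 captured transcript), which left 12755 of 16907 cells, and in the inflammation library 4852 cells, all but 4, carried one of the authors' granulocyte labels. The kept share was 46.2% in the spleen library of run 2 and 78.9% to 94.9% in the other healthy libraries. Median UMIs per cell were 775 to 2698.5 in the healthy libraries and 2527 to 3681 in the 5 conditions. The summed neutrophil markers took 16.1% to 50.4% of UMIs in every sample. Summed haemoglobin and other erythroid markers stood at 30348 CPM (a gene's UMIs scaled to a fixed total, so that samples of unequal depth can be compared) in the neutrophils of blood run 2 and at 0.757 to 912 CPM in the other 10 samples, and their part in the results on blood was not tested.

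The transcription factor p53 responds to DNA damage and other stress by switching on genes that halt division, repair DNA or cause cell death. Cdkn1a (p21) and Cdkn1b (p27) bind and block cyclin-dependent kinases, and Cdkn1a is the classical p53 target whereas Cdkn1b is controlled largely in other ways. Gadd45a and Gadd45b are stress-induced adaptors that act on kinases and cell cycle proteins, and Gadd45b also responds to inflammatory signals. Mdm2 is the ubiquitin ligase that degrades p53 and is itself a p53 target, and Ccng1 (cyclin G1) is another target that feeds back on Mdm2. Xpc recognises distorted DNA at the start of nucleotide excision repair, and Trp53inp1 helps to steer p53 towards death and autophagy. Mature neutrophils have left the cell cycle, and their precursors divide in the marrow.

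The upstream sequences of 3 members are shown because they stand for 3 patterns described next, a gene near 0 in blood that was high in inflamed tissue (Cdkn1a), a p53 target whose ratios of CPM to healthy blood had intervals that held 1 (Mdm2) and the gene with a high level in the peritoneum (Gadd45b). They are the 250 bases before the annotated start, from RefSeq with build GRCm38.p6. Capitals mark matches to the p53 decamer, the repeat unit of a p53 response element, in Cdkn1a and Mdm2 and to the TATA box, TATAAA, in Gadd45b.
Cdkn1a, first start, chr17:29090729-29090978, plus strand: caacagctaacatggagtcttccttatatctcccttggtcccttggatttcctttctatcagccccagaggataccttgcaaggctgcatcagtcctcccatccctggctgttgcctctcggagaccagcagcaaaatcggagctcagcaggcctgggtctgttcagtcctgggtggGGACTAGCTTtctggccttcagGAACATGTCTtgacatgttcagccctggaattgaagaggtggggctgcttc
Mdm2, chr10:117710759-117711008, minus strand: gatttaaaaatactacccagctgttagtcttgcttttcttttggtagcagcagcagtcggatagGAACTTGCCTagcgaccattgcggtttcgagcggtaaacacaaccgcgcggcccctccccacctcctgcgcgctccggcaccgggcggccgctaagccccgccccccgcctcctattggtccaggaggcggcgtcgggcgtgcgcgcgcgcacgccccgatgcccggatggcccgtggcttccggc
Gadd45b, chr10:80929841-80930090, plus strand: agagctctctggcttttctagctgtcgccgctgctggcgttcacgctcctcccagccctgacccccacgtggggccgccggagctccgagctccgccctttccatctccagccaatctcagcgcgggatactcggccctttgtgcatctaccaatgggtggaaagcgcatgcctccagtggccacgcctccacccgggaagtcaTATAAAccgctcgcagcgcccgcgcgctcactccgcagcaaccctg
The decamers began 73 and 51 bases before the first start of Cdkn1a and 186 bases before that of Mdm2, and the TATA box began 46 bases before that of Gadd45b. Of the 8 members 6 had an entry in the promoter table (Cdkn1a with 2 starts), and Xpc and Trp53inp1 had none. On either strand, a p53 decamer was matched before 4 of these 6 genes (Cdkn1a, Gadd45a, Mdm2 and Ccng1), and in 7.13% of 32851 promoters searched over the same 250 bases. The GC box letters GGGCGG were matched before 5 of the 6 and in 32.7% of all promoters, the TATA letters before 1 of the 6 and in 12.4%, and the AP-1 letters TGANTCA before 0 of the 6 and in 6.75% of all promoters. A match is a match of letters only. By GENCODE (GRCm38), Cdkn1a lies on chromosome 17 at 29090976 to 29100727, Mdm2 on chromosome 10 at 117688875 to 117710758, Gadd45b on chromosome 10 at 80930073 to 80932204 and Xpc on chromosome 6 at 91489305 to 91515888. A gene on the other strand overlaps Cdkn1a (AC167363.2) and Gadd45a (E230016M11Rik), and the counting is not stated to use strand.

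The first question was how the members stood in neutrophils that had entered an inflamed site, compared with healthy blood of the same library. Cdkn1a went from near 0 in both blood samples to its highest level in the lung, and Gadd45b was high at all 3 inflamed sites. Xpc and Trp53inp1 were low there, Cdkn1b was low to a lesser degree, and Mdm2 lay between 58.3 and 85.5 CPM in all 5 conditions. In blood of arthritic mice the interval of the ratio to healthy blood held 1 for 7 of 8 members, with Gadd45a (1.42-fold) outside. With every cell thinned to 1000 UMIs, the interval of Gadd45a held 1 too, and that of Ccng1 did not. There was 1 pool of cells per condition, so the intervals (exact Poisson, 95%) and ratios (exact conditional intervals, 95%) cover counting error only and there is no replicate check. Fewer cells that express a gene and less RNA per cell cannot be told apart in such sums.

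Cdkn1a stood at 1.78 CPM in healthy blood (2 UMIs in 509 cells), 4.46 CPM in K/BxN blood, 85.6 CPM in the joint, 47.7 CPM in the peritoneum and 286 CPM in the lung. Its lung level had an interval of 258 to 316 CPM, and the 3 inflamed sites did not overlap either blood sample. Against the 2 UMIs of healthy blood the ratio was 161 in the lung (interval 44.2 to 1334), 48.1 in the joint (13.3 to 398), 26.8 in the peritoneum (7.01 to 228) and 2.51 in K/BxN blood (0.558 to 23.1), whose interval held no difference. The lung exceeded the peritoneum by 5.99-fold (4.39 to 8.36) and the joint by 3.34-fold (2.96 to 3.78).

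The share of cells in which Cdkn1a was detected, which depends on depth, was highest in the lung. A Cdkn1a UMI was seen in 119 of 380 lung cells (31.3%), in 14.2% of joint cells, in 8.90% of peritoneal cells, in 1.35% of K/BxN blood cells and in 0.393% of healthy blood cells, at median depths of 3681, 3531, 3475.5, 3580 and 2527 UMIs. The conditions shared the droplet run, and the part of free RNA in these shares was not tested. In the lung 46 cells held 1 Cdkn1a UMI, 45 held 2 to 4 and 28 held 5 or more, with up to 18 in 1 cell. The 38 lung cells with the most Cdkn1a held 65.9% of its 378 UMIs. With every cell thinned to 1000 UMIs the share was 17.8% in the lung (51 of 286 cells), 6.47% in the joint, 4.76% in the peritoneum, 0.593% in K/BxN blood and 0 of 354 healthy blood cells, which allows a share of cells with a UMI of up to 0.847% at 3 counts (exact binomial limit 1.04%). The thinning left out 155 healthy blood cells, 140 K/BxN blood cells, 123 joint cells, 61 peritoneal cells and 94 lung cells below that depth.

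Gadd45b stood at 144 CPM in healthy blood, 147 CPM in K/BxN blood, 705 CPM in the joint, 2224 CPM in the peritoneum and 636 CPM in the lung. All 3 inflamed sites lay above both blood samples, and the peritoneum lay 15.4-fold (13.2 to 18.2) above healthy blood. The joint was 4.89-fold (4.19 to 5.75) and the lung 4.42-fold (3.73 to 5.26) above healthy blood. Gadd45b was detected in more cells than Cdkn1a, with a UMI in 83.9% of peritoneal, 58.2% of lung, 56.0% of joint and 24.4% of healthy blood cells, and in 74.5% of peritoneal against 11.3% of healthy blood cells after thinning. The order of the sites thus differed between these 2 genes, with the lung highest for Cdkn1a and the peritoneum highest for Gadd45b. Its relative Gadd45a was at 222 CPM in healthy blood, 315 CPM in K/BxN blood, 209 CPM in the joint, 450 CPM in the peritoneum and 347 CPM in the lung. The ratios of Gadd45a to healthy blood were 2.02 (1.73 to 2.38) in the peritoneum, 1.56 (1.34 to 1.83) in the lung, 1.42 (1.23 to 1.64) in K/BxN blood and 0.939 (0.824 to 1.08) in the joint. After thinning they were 1.89 (1.41 to 2.54), 1.31 (0.965 to 1.78), 1.28 (0.988 to 1.66) and 0.816 (0.649 to 1.04) in the same order. The intervals in the lung and in K/BxN blood then held 1, from fewer UMIs.

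Xpc stood at 203 CPM in healthy blood, 220 CPM in K/BxN blood, 31.4 CPM in the joint, 17.0 CPM in the peritoneum and 7.57 CPM in the lung (10 UMIs in 380 cells). Both blood samples lay above all 3 sites. The ratio to healthy blood was 0.155 (0.130 to 0.184) in the joint, 0.0837 (0.0471 to 0.139) in the peritoneum and 0.0373 (0.0177 to 0.0699) in the lung. A UMI of Xpc was found in 33.0% of healthy blood cells and in 2.63% of lung cells, although the lung cells were deeper. Trp53inp1 followed the same split, at 177 and 203 CPM in the 2 blood samples and at 53.8 CPM in the joint, 19.1 CPM in the peritoneum and 30.3 CPM in the lung. Cdkn1b was at 292 CPM in each blood sample, 193 CPM in the joint, 72.1 CPM in the peritoneum and 83.3 CPM in the lung, so the joint lay between blood and the IL-1β sites.

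Mdm2 was at 69.3 CPM in healthy blood, 61.6 CPM in K/BxN blood, 85.5 CPM in the joint, 58.3 CPM in the peritoneum and 69.6 CPM in the lung, and each of its 4 intervals of the ratio to healthy blood held 1. Ccng1 ran from 12.7 CPM in the peritoneum to 27.6 CPM in healthy blood, with a ratio of 0.462 (0.216 to 0.925) in the peritoneum. After thinning to 1000 UMIs per cell the ratio in the peritoneum was 0.341 (0.115 to 0.842) for Mdm2, from 6 UMIs, and 0.109 (0.00259 to 0.719) for Ccng1, from 1 UMI. That of Ccng1 in K/BxN blood was then 0.413 (0.170 to 0.979), from 11 UMIs. These values are relative to each condition's total. The median gene at 20 CPM or more had a log2 ratio to healthy blood of -0.38 in K/BxN blood, -0.46 in the joint, -1.02 in the peritoneum and -0.98 in the lung, so the typical gene was lower at the sites too. With totals scaled by TMM factors, which remove most of that shift, Cdkn1a, Gadd45b, Xpc and Trp53inp1 kept their direction at the 3 sites, and their sizes moved. The scaled ratio of Cdkn1a was 308.9 in the lung, 65.4 in the joint and 53.03 in the peritoneum, and that of Gadd45b was 8.47, 6.65 and 30.5. In the same order Xpc was at 0.0717, 0.210 and 0.165 and Trp53inp1 at 0.329, 0.413 and 0.213, and Cdkn1b was at 0.546, 0.898 and 0.487. Ratios below 1 turned above it under this scaling for Mdm2 in K/BxN blood (1.17) and the peritoneum (1.66), for Ccng1 in K/BxN blood (1.05), the joint (1.19) and the lung (1.11), for Gadd45a in the joint (1.28) and for Cdkn1b in K/BxN blood (1.32). Gadd45a stood at 3.997 in the peritoneum and 3.00 in the lung when scaled, and Mdm2 at 1.93 in the lung and 1.67 in the joint.

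Counted at 2-fold from healthy blood, the members gave 2 higher and 2 lower of 8 in the joint, 3 higher and 4 lower in the peritoneum, 2 higher and 3 lower in the lung, and 0 of the 7 at 20 CPM or more in K/BxN blood. Over all genes at 20 CPM or more in the higher group, 10.1% were higher and 23.6% lower in the joint, 11.3% and 51.6% in the peritoneum, 11.4% and 50.3% in the lung, and 0.648% and 7.82% in K/BxN blood. Nothing is read from the members' counts, since the members were chosen with these ratios known. B cell, T or NK cell, monocyte or macrophage and erythroid markers summed to 0.757 to 389 CPM in each condition, and monocyte or macrophage markers stood at 283 CPM in healthy blood, 301 CPM in the joint, 389 CPM in the peritoneum and 296 CPM in the lung.

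**Figure D1:**
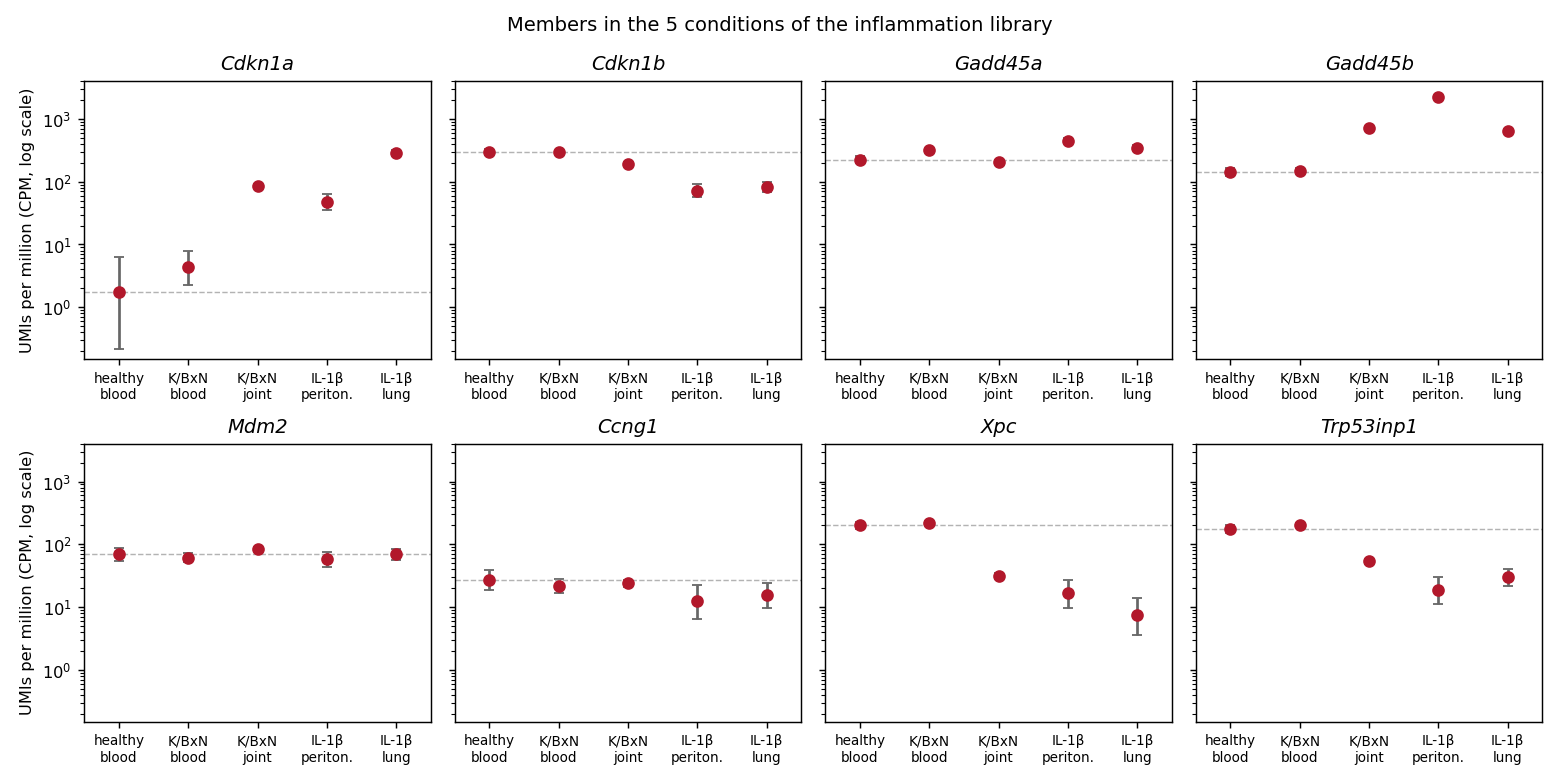
Level of each member (CPM, log axis) in the 5 conditions of the inflammation library; points are pooled cells of 1 condition, bars are exact 95% Poisson intervals and the dashed line is healthy blood. Cdkn1a runs from 1.78 to 286 CPM and Xpc from 203 down to 7.57 CPM between healthy blood and lung, while Mdm2 stays between 58.3 and 85.5 CPM.

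The healthy libraries were compared to see where the members stood from marrow to blood and spleen. The members were chosen with earlier results of these data known, so the healthy calls may not be independent of that choice. Cdkn1b, Gadd45b and Xpc were higher in blood than in marrow in both runs. Spleen stood between marrow and blood for these 3 genes in each run. Cdkn1a was at or below 8.69 CPM in every healthy library.

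Cdkn1b was at 36.3 and 54.3 CPM in bone marrow, 115 and 203 CPM in blood and 75.5 and 157 CPM in spleen (runs 1 and 2). Marrow lay below both other tissues, and blood was above spleen within each run. The difference of blood from marrow was 2.84-fold (SE 0.21 on the log2 scale, n = 2 libraries per tissue, adjusted p = 0.0049 by edgeR), and that of spleen from marrow 2.20-fold (log2 1.14, SE 0.20, adjusted p = 0.037). Gadd45b was at 23.5 and 21.9 CPM in marrow, 101 and 74.1 CPM in blood and 36.1 and 59.3 CPM in spleen. Gadd45b differed 3.13-fold between blood and marrow (log2 1.65, SE 0.25, adjusted p = 0.0068), and spleen against marrow did not pass (log2 0.88, SE 0.25, adjusted p = 0.14). Xpc was at 100.1 and 67.7 CPM in marrow, 185 and 176 CPM in blood and 112 and 166 CPM in spleen, and blood exceeded marrow 1.79-fold (log2 0.84, SE 0.23, adjusted p = 0.039).

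Gadd45a was at 163 and 273 CPM in marrow, 295 and 397 CPM in blood and 179 and 379 CPM in spleen, with a log2 difference of 0.41 (SE 0.21) between blood and marrow that did not pass (adjusted p = 0.20, edgeR). Run 2 lay above run 1 in each tissue. Mdm2 lay between 45.1 and 55.7 CPM in all 6 libraries, Ccng1 between 19.4 and 32.0 CPM and Trp53inp1 between 43.2 and 69.8 CPM, and none of these 3 passed in any pair of tissues. Blood lay below marrow for Mdm2 and above it for Trp53inp1 in both runs, and the tissues overlapped for Ccng1. Cdkn1a was at 2.12 and 2.20 CPM in marrow, 0.735 and 6.89 CPM in blood and 0 and 8.69 CPM in spleen, from at most 24 UMIs in a library. For spleen run 1 the 0 allows up to 1.12 CPM at 3 counts (exact Poisson limit 1.37 CPM). Blood was below marrow in run 1 (log2 -1.53) and above it in run 2 (log2 1.65), and the fitted difference of Cdkn1a had an SE of 1.56 and did not pass (adjusted p = 0.92 by edgeR).

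Of the 8 members, 3 were called higher and 0 lower in blood than in marrow, where 22.1% of 7667 genes were called, 12% higher and 10.1% lower. The median log2 fold change was 0.32 over the members and -0.03 over all genes. In spleen against marrow 1 of 8 was called higher, where 2.75% of genes were called, 2.23% higher and 0.522% lower. Between blood and spleen edgeR called 0 of 8 (1 at an unadjusted p under 0.05, Gadd45b, and 0 by DESeq2), where 0.0522% of all genes were called. Without the run as a block the differences of Cdkn1b and Xpc from marrow did not pass (adjusted p = 0.12 for each, and 0.56 for Cdkn1b in spleen), whereas Gadd45b did. Xpc did not pass with DESeq2 (0.069). In the tissue comparisons, here and below, leaving out a library leaves 1 library in its tissue. The spread then comes from the other tissues, so a call lost in such a fit cannot show that it rested on that library. Without blood run 1 the adjusted p was 0.084 for Cdkn1b, 0.11 for Gadd45b and 0.24 for Xpc, without blood run 2 it was 0.097, 0.067 and 0.28, and without marrow run 2 it was 0.41 for Xpc. The spleen call of Cdkn1b was lost without any 1 library other than spleen run 1 (adjusted p = 0.051 to 0.18), without which Gadd45b was called too (0.031).

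**Figure D2:**
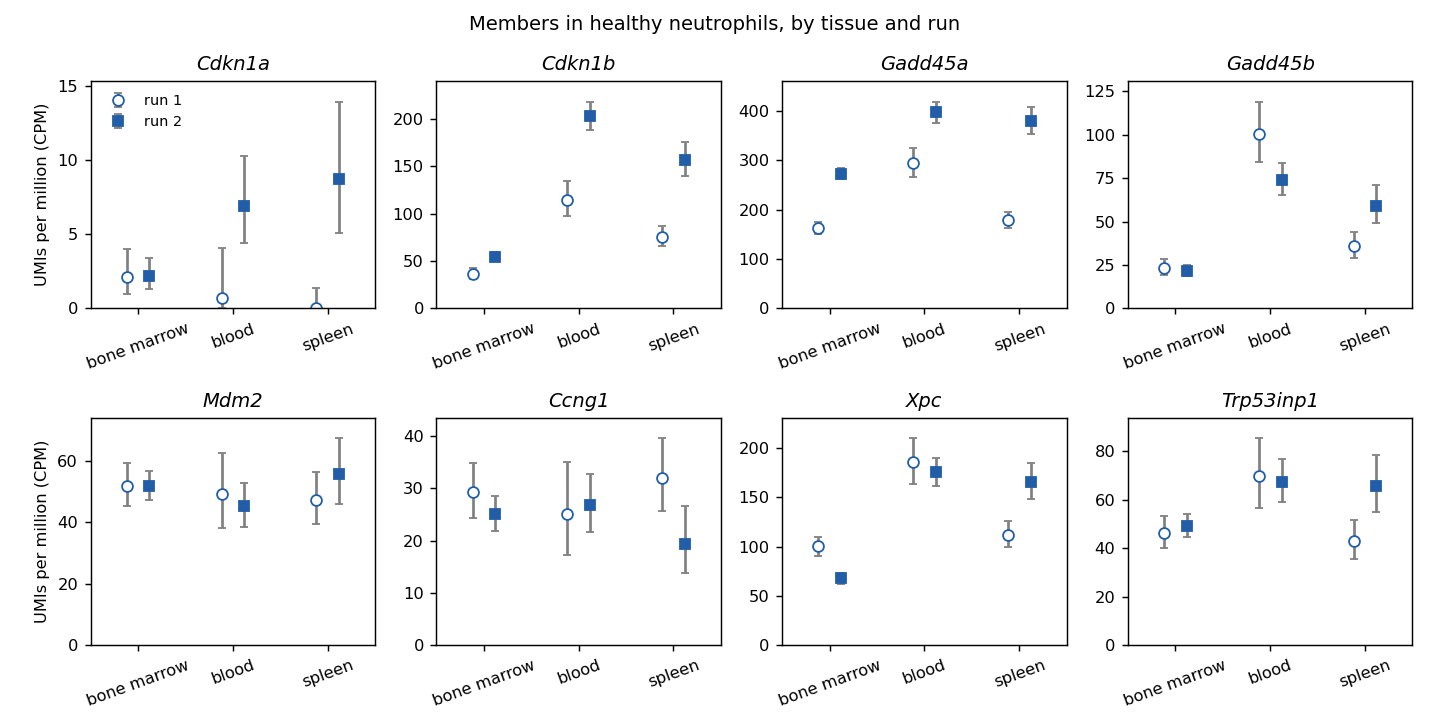
Level of each member (CPM) in the neutrophils of the 6 healthy libraries, with open circles for run 1, filled squares for run 2 and exact 95% Poisson bars. Cdkn1b, Gadd45b and Xpc are higher in blood than in bone marrow in both runs, and Cdkn1a reaches at most 8.69 CPM.

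Neutrophils of the tissues differ in maturity, so the cells were divided by the secondary granule genes Camp, Ngp, Ltf and Lcn2, which are transcribed during maturation in the marrow. Cells with at least 3% of UMIs from these genes were called granule-high and the others granule-low, without cycling cells. Granule-high cells made up 54.5% and 37.8% of marrow neutrophils, 10.2% and 0.708% in blood and 41.7% and 2.29% in spleen. The class is a cut through a range, and 16 to 812 cells of a library lay between 1.5% and 6%.

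A total of 5 members were higher in granule-low than in granule-high cells, and each was higher in 6 of 6 libraries. Gadd45b went from 12.3, 13.7, 16.3, 23.7, 11.9 and 7.29 CPM in granule-high cells (marrow, blood and spleen, runs 1 and 2) to 55.6, 32.5, 129, 75.6, 95.6 and 66.1 CPM in granule-low cells. The classes did not overlap for Gadd45b, and the difference was 3.77-fold (log2 1.91, SE 0.23, n = 6 libraries, adjusted p = 5.8e-07 by edgeR). Here and in the later test of cycling cells, each library counts as a replicate, although the tissues of a run share the same mice. Gadd45a went from 122 to 263 CPM in granule-high to 350 to 441 CPM in granule-low cells (log2 0.90, SE 0.16, adjusted p = 9.7e-05), again without overlap. Trp53inp1 went from 0 to 43.3 CPM to 69.7 to 86.7 CPM (log2 0.99, SE 0.21, adjusted p = 6.5e-04). Its 0 was in the 26 granule-high cells of blood run 2, which allows up to 35.6 CPM at 3 counts (exact Poisson limit 43.8 CPM). Cdkn1b went from 30.4 to 107 CPM to 62.0 to 205 CPM (log2 0.94, SE 0.18, adjusted p = 2.1e-04) and Xpc from 23.7 to 88.4 CPM to 71.4 to 231 CPM (log2 0.89, SE 0.20, adjusted p = 0.0011), with overlap between tissues for both.

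Mdm2 (log2 -0.31, SE 0.20, adjusted p = 0.25) and Ccng1 (log2 -0.21, SE 0.23, adjusted p = 0.51) did not pass, and Cdkn1a fell below the filter on low counts, with at most 24 UMIs in a class of a library. So 5 of the 7 members tested were called higher, where 36.7% of 6510 genes were called, 21.5% higher and 15.2% lower. The median log2 difference was 0.90 over these 7 and 0.07 over all genes. Granule-low cells were shallower, with 768.5 to 1767 median UMIs against 2228 to 3761, and the part of depth was not tested. The same 5 members were called without the library as a block, with DESeq2, at granule limits of 1.5% and 6% and without each library in turn.

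**Figure D3:**
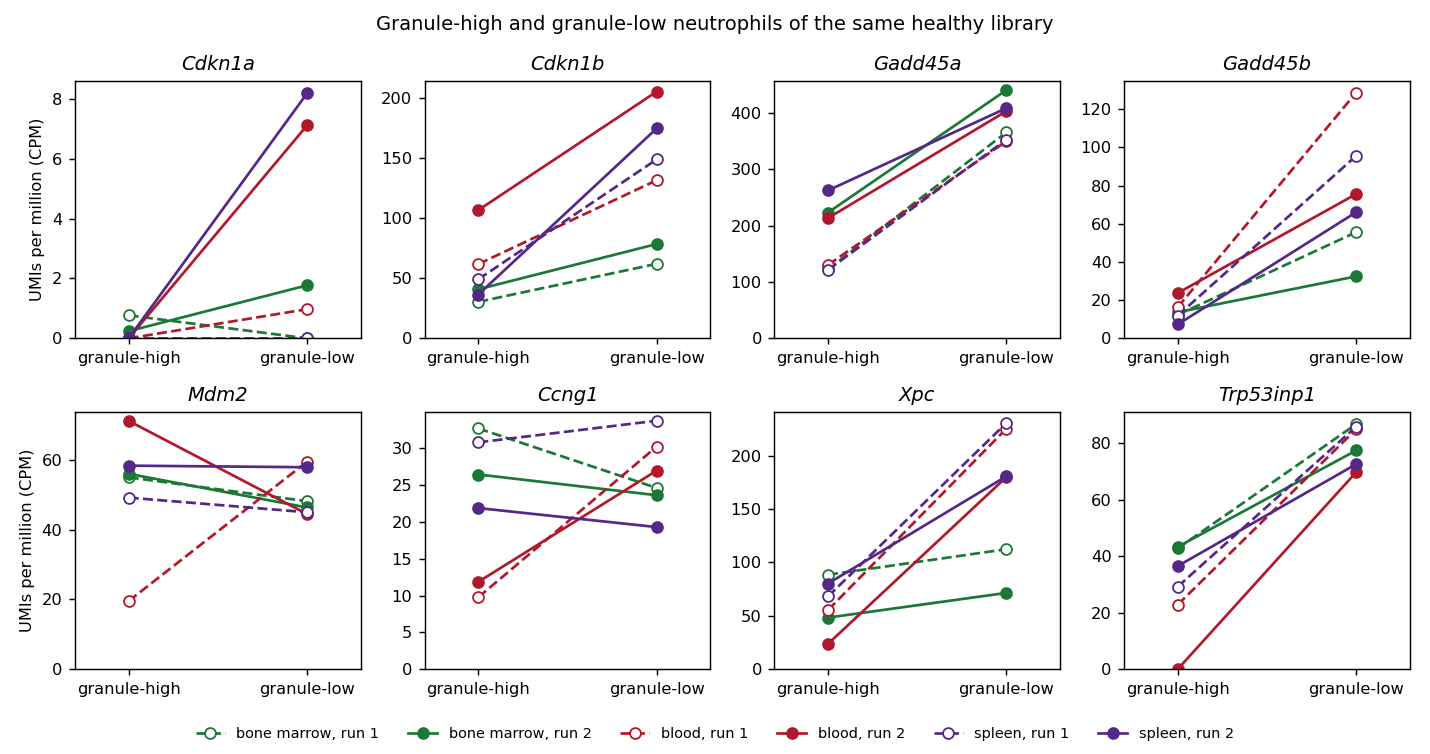
Level of each member (CPM) in granule-high and granule-low neutrophils; each line joins the 2 classes of 1 healthy library (colour, tissue; dashed and open, run 1; solid and filled, run 2). All 6 lines rise for Cdkn1b, Gadd45a, Gadd45b, Xpc and Trp53inp1, and those of Mdm2 and Ccng1 cross.

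Within granule-low cells, blood was set against marrow to compare cells without the difference in granule-high share. The sums tested in this comparison, for the members and for the lists below, kept cycling cells under the granule limit. The CPM values given beside the tests leave cycling cells out. Cdkn1b was at 132 and 205 CPM in blood and 62.0 and 78.5 CPM in marrow (log2 0.89, SE 0.20, n = 2 libraries per tissue, adjusted p = 0.018 by edgeR). Gadd45b was at 129 and 75.6 CPM against 55.6 and 32.5 CPM (log2 0.86, SE 0.18, adjusted p = 0.012) and Xpc at 225.3 and 179.9 CPM against 112 and 71.4 CPM (log2 0.79, SE 0.17, adjusted p = 0.016). All 3 were above marrow in both runs. Gadd45a and Trp53inp1, in contrast, had log2 differences of -0.45 (SE 0.18, adjusted p = 0.13) and -0.46 (SE 0.18, adjusted p = 0.12). Hence 3 of 7 members tested were called higher, where 15.6% of 5980 genes were called, 8.34% higher and 7.21% lower. None of the 3 passed without the block (adjusted p = 0.19 to 0.23) or with DESeq2 (0.096 to 0.21), nor without marrow run 2 (0.064 to 0.14) or blood run 2 (0.14 to 0.28). Without blood run 1, Cdkn1b alone was called and Gadd45b (0.088) and Xpc (0.063) were not.

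The last comparison asked how the arrest genes stood in cells that were dividing. Cycling neutrophils held at least 3 UMIs and 0.3% of UMIs from 29 proliferation genes, and they were 68 and 191 cells in marrow and 18 and 16 in spleen, set against the non-cycling granule-high cells of the same library. Gadd45a and Trp53inp1 were low in cycling cells in all 4 libraries. Gadd45a was at 43.6, 39.9, 48.0 and 55.1 CPM in cycling cells (marrow runs 1 and 2, spleen runs 1 and 2) and at 122, 223, 122 and 263 CPM in the others (log2 -2.20, SE 0.19, n = 4 libraries, adjusted p = 1.8e-12 by edgeR). Trp53inp1 was at 7.03, 3.86, 8.00 and 0 CPM against 42.7, 43.3, 29.2 and 36.5 CPM (log2 -3.25, SE 0.35, adjusted p = 4.6e-10). The 0 of Trp53inp1 in the 16 cycling cells of spleen run 2 allows up to 27.6 CPM at 3 counts (exact Poisson limit 33.9 CPM), and the 8.00 CPM of spleen run 1 is 1 UMI, with an upper limit of 44.6 CPM. The groups of Gadd45a did not overlap, those of Trp53inp1 in spleen cannot be set apart by their counts alone, and both genes kept their call under each alternative tried.

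Cdkn1a was seen more often in cycling cells, with 7, 13, 0 and 3 UMIs against 2, 1, 0 and 0 UMIs in the others. Within marrow the ratio was 12.8 in run 1 (interval 2.44 to 126) and 34.8 in run 2 (5.22 to 1478), with exact intervals for counting error. Cdkn1a entered the edgeR fit through the cycling cells, where it is high, so its call there is not read as support. Without either marrow library, without the block and at a limit of 5 UMIs and 0.5% Cdkn1a fell below the filter. Gadd45b (log2 0.73, SE 0.30, adjusted p = 0.036), Xpc (log2 0.50, SE 0.19, adjusted p = 0.028) and Mdm2 (log2 -0.48, SE 0.21, adjusted p = 0.049) passed narrowly. Xpc was higher in 3 of 4 libraries and went the other way in spleen run 2, at 36.7 CPM in cycling cells against 80.2 CPM. Gadd45b lost its call without marrow run 1 (0.15), spleen run 1 (0.14) or spleen run 2 (0.17), Xpc without marrow run 1 (0.098), marrow run 2 (0.87) or spleen run 2 (0.087), and Mdm2 without marrow run 1 (0.055), marrow run 2 (0.075) or spleen run 1 (0.071). Gadd45b also fell below the filter without marrow run 2, and without the block Gadd45b (0.13) and Xpc (0.64) lost their calls. With DESeq2 Gadd45b (0.18), Xpc (0.60) and Mdm2 (0.11) did not pass. Without spleen run 2, Cdkn1b and Ccng1 were called lower. Cdkn1b (log2 -0.37, SE 0.22, adjusted p = 0.16) and Ccng1 (log2 -0.39, SE 0.25, adjusted p = 0.20) otherwise did not pass. Of 8 members 3 were called higher, Cdkn1a included, and 3 lower, where 52.3% of 6326 genes were called, 32.8% higher and 19.5% lower. Cycling cells had 6477.5 to 10544 median UMIs against 2753 to 3761, doublets were not called in the healthy libraries, and the part of both was not tested.

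**Figure D4:**
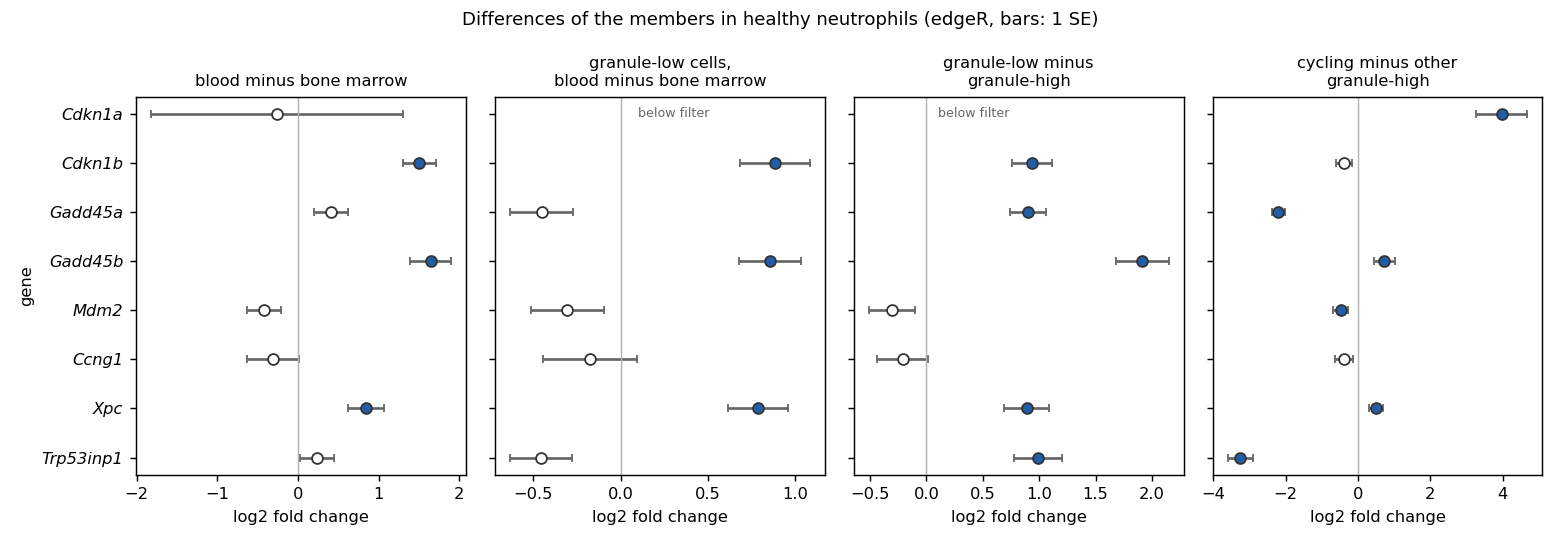
Log2 fold change of each member in 4 comparisons within healthy neutrophils (edgeR, bars 1 SE; filled points, adjusted p below 0.05; each panel has its own scale). Gadd45a and Trp53inp1 are higher in granule-low than in granule-high cells (0.90 and 0.99) and lower in cycling cells (-2.20 and -3.25). Cdkn1a entered the cycling panel through the group where it is high.

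Other genes of the pathway were read from 5 lists. Among p53 target genes of apoptosis, 2 of 6 tested were higher and 0 lower in blood than in marrow, where 12% of all genes were higher and 10.1% lower, as for each list that follows. Pmaip1 (Noxa, a pro-death BH3-only protein) went from 3.06 and 2.64 CPM in marrow to 60.3 and 35.6 CPM in blood (log2 3.70, SE 0.28, adjusted p = 0.0018), and Fas, the death receptor, from 56.0 and 68.8 CPM to 121 and 139 CPM (log2 0.78, SE 0.20, adjusted p = 0.034). Neither gene overlapped between the tissues. Pmaip1 entered this fit through blood and spleen, where it is high, so its calls between blood and marrow are not read as support. Within granule-low cells alone Fas was at log2 -0.29 between blood and marrow (SE 0.18, adjusted p = 0.31), and Pmaip1, the 1 of 5 called there, at log2 2.69 (SE 0.34, adjusted p = 0.0018, and 0.077 without the block). In granule-low against granule-high cells 3 of 6 were higher and 1 lower (21.5% and 15.2% of all genes), with Fas at log2 1.65 (SE 0.19, adjusted p = 3.0e-07). Pmaip1, one of the 3, fell below the filter on low counts there without the block, and its call is not read as support.

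Among p53 targets of arrest, repair and metabolism, 2 of 6 were higher and 1 lower in blood. Btg2, an antiproliferative gene, went from 137 and 186 CPM in marrow to 462 and 679 CPM in blood (log2 1.52, SE 0.28, adjusted p = 0.012), Sesn2, a stress-induced inhibitor of mTORC1 signalling, from 18.8 and 19.9 CPM to 56.6 and 74.1 CPM (log2 1.46, SE 0.26, adjusted p = 0.011), and Trp53inp2, which acts in autophagy, from 58.2 and 42.8 CPM to 28.7 and 7.47 CPM (log2 -2.17, SE 0.62, adjusted p = 0.046). The log2 difference of Trp53inp2 was -3.23 without marrow run 1 and -0.93 without marrow run 2. Within granule-low cells, Sesn2 was at log2 0.26 (SE 0.20, adjusted p = 0.43) and Trp53inp2 at log2 -1.20 (SE 0.62, adjusted p = 0.24), and Btg2 alone was called of 6 (log2 0.73, SE 0.19, adjusted p = 0.034, and 0.30 without the block). The 2 Trp53inp genes differed in granule-low cells, with Trp53inp1 at log2 0.99 and Trp53inp2 at log2 -3.24 (SE 0.25, adjusted p = 6.7e-10) against granule-high cells. Among other inhibitors of the cell cycle, 1 of 8 was higher and 1 lower in blood. Btg1, a relative of Btg2, was at 180 and 730 CPM in marrow and 861 and 3509 CPM in blood (log2 1.98, SE 0.28, adjusted p = 0.0055), above marrow in each run and without overlap. Cdkn2c (p18), a blocker of CDK4 and CDK6, was at 21.2 and 21.6 CPM in marrow and 8.09 and 3.16 CPM in blood (log2 -2.41, SE 0.38, adjusted p = 0.0077). Within granule-low cells 1 of 5 was higher in blood, Btg1 (log2 0.90, SE 0.18, adjusted p = 0.011, and 0.65 without the block), and 1 lower. In cycling cells 3 of 7 of these inhibitors were higher and 3 lower (32.8% and 19.5% of all genes). Cdkn2c was among the higher ones (log2 4.98, SE 0.26, adjusted p = 9.6e-19), with Cdkn2d and Rbl1, named after their values were seen. Cdkn2c and Rbl1 did not pass the filter between granule classes, so their calls in cycling cells are not read as support. Btg1 (log2 -1.22, SE 0.16, adjusted p = 5.2e-08) was among the lower ones. Of the 4 targets of arrest, repair and metabolism tested in cycling cells 0 were higher and 2 lower, Btg2 (log2 -1.86, SE 0.20, adjusted p = 5.9e-10) and Trp53inp2 (log2 -1.68, SE 0.23, adjusted p = 7.4e-08).

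Of the p53 regulators, 1 of 5 was higher in blood, the deubiquitinase Usp7 that acts on Mdm2 and p53 (log2 0.87, SE 0.23, adjusted p = 0.037). In cycling cells 3 of 6 regulators were called higher, where 32.8% of all genes were. They were Trp53, Ppm1d and Chek2, named after their values were seen, and Chek2 passed the filter in no other comparison, so its call is not read as support. Of 9 nucleotide excision repair genes tested, 1 was lower in blood, the centrin Cetn2 that binds the Xpc protein (log2 -0.90, SE 0.23, adjusted p = 0.034), so it went the other way from Xpc. In cycling cells 5 of the 9 were higher and 1 lower (32.8% and 19.5% of all genes), whereas DESeq2 called 1 of the 9. Each of the 9 calls named here between blood and marrow was lost under at least 1 alternative. Without the block Pmaip1 alone was called (adjusted p = 0.03 by edgeR, and 0.052 to 0.35 for the others), as it was without blood run 1 (0.04, and 0.052 to 0.29 for the others), and without blood run 2 none was (0.056 to 0.26). Without marrow run 1, Fas (0.19) and Usp7 (0.072) lost their calls, and without marrow run 2 Fas (0.23), Usp7 (0.23), Trp53inp2 (0.15) and Cetn2 (0.20) did. With DESeq2 Fas (0.12), Usp7 (0.30) and Cetn2 (0.23) did not pass, and with the filter on cells Fas (0.10), Usp7 (0.058) and Cdkn2c (0.10) did not. In cycling cells Btg1 lost its call without the block (0.06). The medians of the 5 lists in blood against marrow ran from -0.58 (other inhibitors) to 0.65 (apoptosis targets), beside -0.03 over all genes. At the inflamed sites, Fas was 6.58-fold (5.53 to 7.87) above healthy blood in the peritoneum and 4.80-fold (4.04 to 5.74) in the lung, and at 1.16 (0.983 to 1.38) of it in the joint. Btg2 was 2.35-fold (2.17 to 2.55) above it in the joint, 1.33-fold (1.19 to 1.48) in the peritoneum, 1.61-fold (1.46 to 1.77) in the lung and 0.920-fold (0.837 to 1.01) in K/BxN blood, and Pmaip1 was at 0.174 of it both in the lung (0.103 to 0.280) and in K/BxN blood (0.119 to 0.251), at 0.324 (0.206 to 0.497) in the peritoneum and at 0.844 (0.687 to 1.05) in the joint. Plk3, a polo-like kinase named after its values were seen, was 14.3-fold (10.4 to 20.1) above healthy blood in the joint, 9.50-fold (6.84 to 13.5) in the lung and 2.20-fold (1.47 to 3.34) in the peritoneum, and 1.21-fold (0.834 to 1.79) in K/BxN blood. Counted at 2-fold among genes at 20 CPM or more, apoptosis targets gave 0 higher and 1 lower of 5 in the joint, 1 and 3 of 5 in the peritoneum and 2 and 2 of 5 in the lung, and the targets of arrest, repair and metabolism gave 3 and 1 of 6, 1 and 1 of 6 and 1 and 1 of 6. The other inhibitors gave 1 higher and 1 lower of 6 in the joint and 1 and 3 of 6 at each IL-1β site. For the p53 regulators it was 0 and 1 of 4 in the joint and 0 and 4 of 4 at each IL-1β site, and for nucleotide excision repair 0 and 2 of 5 in the joint and 0 and 4 of 4 at each IL-1β site. The shares over all genes are those given for the members.

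Over the 11 samples (6 healthy libraries and 5 conditions) the genes whose log2(CPM + 1) was most like that of Cdkn1a were Tmod3 (Pearson r = 0.95), Nfil3 (r = 0.94) and Il1r2 (r = 0.94), of 3780 genes at 20 CPM or more. For this comparison CPM was taken over the UMIs of genes listed in a run 1 table and in every table of run 2 and of inflammation, a smaller total than elsewhere. On that base Il1r2, the decoy receptor for IL-1, was at 270.2 CPM in healthy blood, 2022 CPM in the joint, 1178 CPM in the peritoneum and 3993 CPM in the lung, and Nfil3, a leucine zipper transcription factor, at 49.4, 164, 120 and 492 CPM. For Xpc they were Med30 (r = 0.98), Tbc1d10c (r = 0.98) and Slc25a45 (r = 0.97). Med30, a Mediator subunit, was at 117 CPM in healthy blood and 28.6, 22.7 and 16.5 CPM in the joint, peritoneum and lung. These r values are a description, since the samples share libraries, mice and depth. The healthy libraries and the inflammation library also differ in chemistry version per the study's methods, which cannot be told apart from condition across them, and Trp53inp1 was at 69.8 and 67.5 CPM in blood of the healthy libraries and at 177 CPM in healthy blood of the inflammation library. The libraries also differ in how neutrophils were chosen. Of the healthy blood cells with a granulocyte label in the inflammation library, 19.8% fell under the 3% S100 limit of the healthy libraries.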

How the data were processed

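Neutrophils were profiled by droplet single-cell RNA-seq. The authors aligned reads to mm10 and made UMI counts per gene and cell with Cell Ranger, and deposited the counts of Cell Ranger's filtered barcodes (in the inflammation library, of hashtag singlets, after their removal of hashtag doublets and negatives), with a table of hashtag conditions and cell labels for the inflammation library. Counts were summed here per library and cell class, with 1360064 to 9104133 UMIs per healthy library and 942688 to 10293966 per condition, and scaled to counts per 1e6 UMIs (CPM). Healthy comparisons used edgeR 4.0.16 (R 4.3.3) quasi-likelihood tests with TMM factors, filterByExpr, the run (or library) as a block and Benjamini-Hochberg adjustment over all genes tested, called at 0.05. The method was tested on simulated data. Same-numbered libraries deviated together (r = 0.52, 0.58 and 0.47 over 7613 genes), and the study's methods state that a run's tissues came from the same mice. Genes tested had to be listed in a run 1 table and in all run 2 tables (9112 genes). The inflammation library has 1 pool per condition and no test. Its ratios used exact intervals, and genes at 20 CPM or more were counted at 2-fold. Alternatives were DESeq2 1.42.0, RLE factors, other cell limits and filters, thinning, and leaving out each library. Members and lists were chosen with earlier results of these data known. The text names the members, at most 4 called genes of each list (largest change in blood against marrow, otherwise the 2 with the highest mean CPM) and the 3 genes most like Cdkn1a and Xpc. Doublets were not called here, and libraries shared at most 36 cell barcodes. With 2 libraries per tissue p-values measure the spread between pools. Between granule classes and in cycling cells they count the libraries of a run as separate, though these share mice.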

Additional observations from a re-analysis of the deposited data

Results flagged for a closer look

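Ccng1 moved in opposite directions in blood and in bone marrow when granule-low cells were set against granule-high cells, with both runs of a tissue alike. The log2 ratio was 1.63 and 1.19 in blood and -0.41 and -0.16 in bone marrow (runs 1 and 2). The difference between the tissues was not tested. Granule-high blood cells held only 3 and 1 UMIs of Ccng1, and all 4 ratios had exact counting intervals that held 1 (3.09, 0.965 to 15.8, and 2.27, 0.398 to 90.8, in blood).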

How the results depend on the processing

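Numbers of called members moved as follows. Without the replicate block, the calls fell from 3 to 1 in blood against marrow, from 1 to 0 in spleen against marrow, from 3 to 0 within granule-low cells and from 6 (Cdkn1a included) to 3 in cycling cells. With DESeq2 they were 0 within granule-low cells and 3 in cycling cells, with the filter on cells 0 in spleen against marrow, and at the cycling limit of 5 UMIs and 0.5% they were 3. Leaving out 1 library each time gave 0 to 3, 0 to 2, 0 to 3 and 2 to 6 calls in these 4 comparisons. Nothing else in the number of called members moved by over 1.5 times, and the 5 calls between granule classes were made under every alternative. In the other lists, DESeq2 called 0 in place of 1 regulator, 1 in place of 2 apoptosis targets and 0 in place of 1 repair gene in blood against marrow, 1 in place of 0 targets of arrest, repair and metabolism in spleen against marrow, 1 in place of 2 regulators between granule classes and 1 in place of 6 repair genes in cycling cells. The cause was not tested.

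Signs turned only for differences that were not called. For blood against marrow, the log2 difference of Cdkn1a was 0.66 without the block, 0.50 with the filter on cells and 0.027 with an S100 limit of 10%, and that of Trp53inp1 was -0.040 with the filter. For spleen against marrow, Cdkn1a was at 0.65 without the block and 0.21 with the filter on cells, Gadd45a at -0.054 with that filter, and Trp53inp1 at 0.045 without the filter on low counts and 0.057 with the S100 limit of 10%. Over the fits without 1 library, Cdkn1a ran from -2.62 to 1.71 in blood against marrow, from -5.57 to 1.22 in spleen against marrow and from -0.63 to 5.83 in blood against spleen. Ccng1 ran from -0.79 to 0.051, from -0.82 to 0.25 and from -0.57 to 0.53 in the same order, and from -0.40 to 0.070 within granule-low cells. Trp53inp1 ran from -0.078 to 0.056 in spleen against marrow. In the inflammation library, 8 of 32 ratios were at least 2-fold higher and 9 at least 2-fold lower, against 9 and 7 with TMM factors and 6 and 12 after thinning, where Cdkn1a was set against 3 counts in healthy blood. Depth limits Cdkn1a in healthy cells, with 0 to 24 UMIs in a library, and its ratios rest on 2 UMIs in healthy blood.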

Other observations

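Cells below the S100 limit, which entered no comparison, held more Cdkn1a than the neutrophils of the same library in 3 of 6 healthy libraries. The levels were 21.4 CPM in blood run 1 (13 UMIs in 282 cells), 17.0 CPM in marrow run 2 (17 UMIs in 397 cells) and 6.52 CPM in marrow run 1 (3 UMIs in 65 cells), against 0.735, 2.20 and 2.12 CPM in the neutrophils. In blood run 2 (2.44 CPM) and spleen run 2 (2.89 CPM) they were below the neutrophils (6.89 and 8.69 CPM), and in spleen run 1 both were 0. Ccng1 was higher in such cells than in the neutrophils in spleen (74.0 against 32.0 CPM in run 1, 57.1 against 19.4 CPM in run 2), in marrow run 2 (48.9 against 25.0 CPM) and in blood run 1 (27.9 against 25.0 CPM), and lower in marrow run 1 (19.6 against 29.2 CPM) and blood run 2 (7.74 against 26.7 CPM). These cells are mixed, with erythroid markers at 810403 CPM in blood run 2 and B cell markers at 10667 CPM in spleen run 2. They may include neutrophils. In the inflammation library, where the limit was not applied, 19.8% of healthy blood cells with a granulocyte label fell under it.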
